A study of Mus musculus with 11 samples.

Results

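Corpus callosum from mice labelled Bmal1-/- was compared with corpus callosum from wild-type mice by RNA sequencing, in 2 and 3 libraries, which together are 5 of the 11 libraries of the study. The libraries were chosen by the tissue and genotype in their titles, and no measured value entered the choice. The other 6 libraries came from primary neurospheres of the subventricular zone, 3 of each genotype, and serve here only to set callosum values beside another source. All mice were 8 to 10 weeks old, and the labels name no treatment of the callosum animals. Strain, sex and time of day of collection are not stated in these labels, nor is the part of the gene that is missing, and no promoter or cell type is named to which the loss would be limited. Whether each library is a separate animal is not stated, so the tests measure the spread from library to library, which may be technical.

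BMAL1, listed under the gene symbol Arntl, is the transcription factor that pairs with CLOCK, or with its relative NPAS2, and binds E-boxes in the promoters of clock genes. Period and cryptochrome proteins, made from such genes, repress the pair in turn. REV-ERB receptors repress and ROR receptors activate genes with ROR elements, and the factors DBP, TEF and HLF activate genes with D-boxes, which NFIL3 represses. The corpus callosum is the large tract of myelinated axons between the hemispheres, rich in oligodendrocytes and astrocytes, and astrocytes raise the filament gene Gfap and other genes in reactive states.

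Gene counts summed to 17513165 to 17836955 per callosum library, and 16716 to 16982 genes had a count in a library. Levels are in CPM (counts divided by the TMM-scaled size of the library, within the 5 callosum libraries), always in the order wild-type replicates 1, 2 and 3, then Bmal1-/- replicates 1 and 2. A level of 0.165 to 0.175 CPM, depending on the library, corresponds to 3 counts, the amount that a count of 0 would still allow, for counting error only. Arntl (chromosome 7, 113178471 to 113314126, mm10) stood at 32.2, 29.6 and 26.8 CPM in the wild-type libraries and at 26.9 and 33.4 CPM in those labelled Bmal1-/-. The groups overlapped, so the count over the whole gene gave no check of the genotype labels, and directions below are those of the libraries so labelled. All 25 myelin genes and all 20 astrocyte genes of the marker lists were detected. Summed over the myelin list, levels were 20749 to 31481 CPM in the wild type and 23771 and 32443 CPM in the Bmal1-/- libraries. Genes of mature neurons were present as well, at sums of 19976 to 26521 CPM and 23529 and 27843 CPM. The 12 striatal neuron genes, all of them above 0, summed to 1037, 3161 and 1751 CPM in the wild type and to 857 and 1088 CPM in Bmal1-/-, and all 12 had a fitted value below the wild type without passing the test. Choroid plexus genes summed to 19.4, 39.8 and 151 CPM and to 13.2 and 9.74 CPM. In bulk tissue, fewer cells of a type and less RNA per cell cannot be told apart.

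Genotype separated the libraries in a small set of genes. Of 14198 genes tested, 129 were called at an edgeR adjusted p under 0.05, which is 0.909%. In the Bmal1-/- libraries 74 were higher (0.521%) and 55 lower (0.387%). Counts of called list members below are to be read beside these shares, at which most short lists would hold no call. The median log2 fold change was 1.31 among those called higher and -1.13 among those called lower, beside -0.01 over all genes tested. At least a 2-fold difference was fitted for 76 called genes, 47 higher and 29 lower, and at least 4-fold for 18 higher and 15 lower. In each of the 129 the libraries of the genotypes did not overlap, as was also the case for 32.5% of all genes tested. Of the 129, 25 held, that is, stayed called whichever single library was left out, and the calls of 104 ended in at least 1 such fit. Leaving out a Bmal1-/- library leaves 1 against 3, so the spread then comes from the wild type alone and the lone library is assumed to vary like it. Of the 104, 103 ended without wild-type replicate 3: that fit kept 26 of the 129 calls, while those without wild-type replicate 1 or 2, also 2 libraries against 2, kept 80 and 65. Under all 15 settings tried, 18 genes were called. The higher ones were C4b, Egfl6, Sox3, Bcl3, P4ha3, Mmp14, Col5a3, Slc13a3, Slc20a2 and Plat, and the lower ones Etnppl, Slc25a34, Chil1, Kirrel2, Dbp, Nr1d2, Per3 and Cyp4f15.

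**Figure D1:**
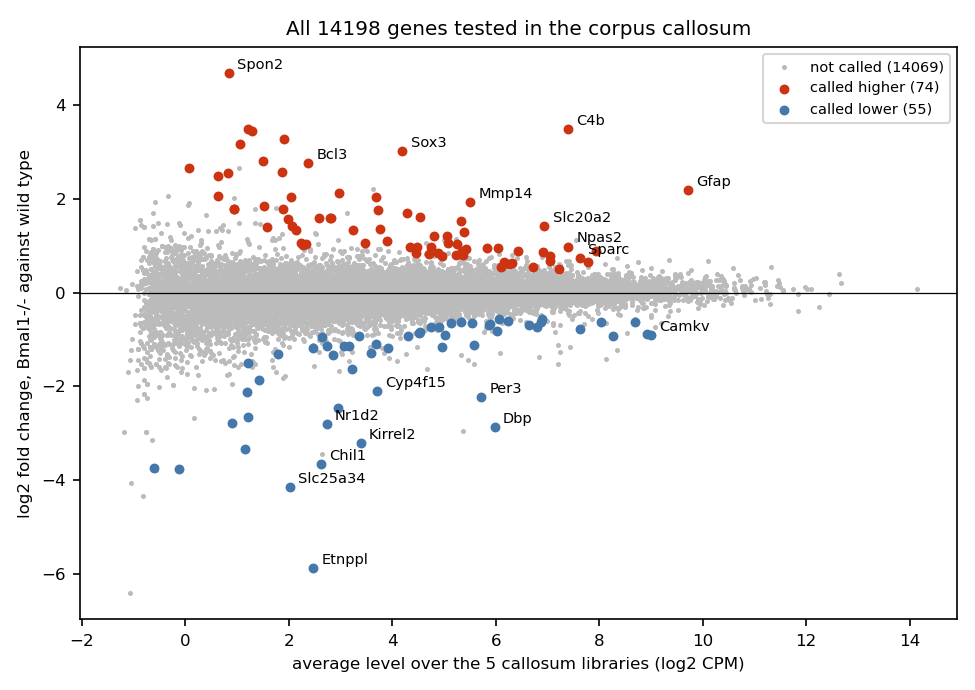
Log2 fold change, Bmal1-/- against wild type, on the y axis for each of the 14198 genes tested, against the average level over the 5 callosum libraries as log2 CPM on the x axis. Red points are the 74 genes called higher and blue points the 55 called lower by edgeR's quasi-likelihood test; C4b and Gfap stand apart at high levels, and Etnppl has the lowest fitted value of the called genes.

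Among the clock's activators, Npas2 rose and Arntl, Clock and Arntl2 did not pass. Npas2 (chromosome 1, 39193702 to 39363240), the partner that can stand in for CLOCK, read 130, 125 and 110 CPM in the wild type and 224 and 256 CPM in Bmal1-/-. The groups lay far apart, at a log2 fold change (log2FC) of 0.98 ± 0.11 (SE, edgeR adjusted p = 0.00499). Clock itself read 25.7, 26.9 and 21.7 CPM against 29.5 and 29.4 CPM, a log2 difference of 0.25 ± 0.13 that did not pass (edgeR adjusted p = 0.417). Among the repressors of the pair, the cryptochrome Cry1 (chromosome 10, 85131700 to 85185054) rose from 16.8, 21.7 and 16.8 CPM to 37.3 and 47.6 CPM, by 1.20 ± 0.16 on the log2 scale (SE, edgeR adjusted p = 0.0103). Cry2 read 167, 159 and 156 CPM against 191 and 186 CPM and did not pass. The period genes went separate ways: Per3 (chromosome 4, 150997018 to 151044707) fell from 80.8, 72.6 and 77.2 CPM to 15.4 and 17.3 CPM, while Per1 and Per2 overlapped between the groups. Per1 read 367, 329 and 448 CPM against 344 and 412 CPM. Per2 read 85.0, 94.4 and 76.8 CPM against 89.4 and 109 CPM. The call of Per3 held, and those of Npas2 (edgeR adjusted p = 0.0709) and Cry1 (0.118) ended without wild-type replicate 3. In a single model of all 11 libraries Npas2 did not pass (0.0632), and Cry1 did (0.0348).

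Both REV-ERB genes fell. Nr1d2, which encodes REV-ERB beta (chromosome 14, 18204056 to 18239106), was near 10 CPM in the wild type, at 9.76, 10.0 and 9.91, and at 0.990 and 1.83 CPM in Bmal1-/-, where it rested on 17 and 32 counts. Nr1d1, which encodes REV-ERB alpha, read 431, 316 and 397 CPM against 197 and 203 CPM. The wild-type libraries of Nr1d1 spread more widely than those of Nr1d2, and its fitted fall of 0.93 ± 0.14 on the log2 scale (SE, edgeR adjusted p = 0.0205) was the smaller. The call of Nr1d2 held, while that of Nr1d1 ended without wild-type replicate 3 or either Bmal1-/- replicate (edgeR adjusted p = 0.0635 to 0.17) and in the model of 11 libraries (0.435). The ROR genes Rora and Rorb did not pass: Rora read 11.1, 7.30 and 8.00 CPM against 7.28 and 6.87 CPM, and Rorb 6.32, 5.82 and 5.69 CPM against 4.54 and 3.21 CPM.

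Of the D-box factors, the activator Dbp fell and the repressor Nfil3 rose. Dbp (chromosome 7, 45705100 to 45710203) read 94.3, 88.2 and 106 CPM in the wild type and 12.6 and 13.6 CPM in Bmal1-/-, with the groups widely separated and the replicates close. Nfil3 (chromosome 13, 52967209 to 52982878) read 7.11, 8.07 and 9.80 CPM against 20.9 and 21.6 CPM, a rise of 1.35 ± 0.16 (SE, edgeR adjusted p = 0.00593). Tef read 517, 464 and 445 CPM against 348 and 292 CPM, and Hlf 260, 176 and 183 CPM against 155 and 139 CPM. Their groups did not overlap, as in 32.5% of all genes tested, and neither gene passed (edgeR adjusted p = 0.0766 and 0.273). Ciart, a repressor of CLOCK and BMAL1, fell from 10.8, 11.4 and 11.5 CPM to 2.50 and 1.55 CPM, and 15.1% of its 50-base stretches also occur in transcripts of Gm9176. Bhlhe40 and Bhlhe41, which compete for E-boxes, did not pass, at 80.2, 56.1 and 59.0 CPM against 44.0 and 42.2 CPM and at 73.9, 76.4 and 74.3 CPM against 50.4 and 67.9 CPM. The calls of Dbp, Nfil3 and Ciart held, and in the model of 11 libraries Nfil3 (0.448) and Ciart (0.0609) did not pass. Dbp overlaps Sphk2, and Nr1d1 overlaps Thra, on the opposite strand, and reads of such partners cannot be told apart in these counts.

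Of 10 genes for kinases, ubiquitin ligases and proteases of the clock, 1 was called, the deubiquitinase Usp2. It read 146, 133 and 133 CPM in the wild type and 96.5 and 88.1 CPM in Bmal1-/- (log2FC -0.57 ± 0.10, SE; edgeR adjusted p = 0.0431), and its call ended whichever library was left out (0.0875 to 0.22). The casein kinase genes Csnk1d and Csnk1e lay close together between groups, Csnk1e at 272, 233 and 256 CPM against 252 and 267 CPM. Counted as lists, 6 of 14 E-box targets of CLOCK and BMAL1 were called lower, beside 0.387% of all genes tested, and 0 higher. Their median log2FC was -0.57. Of 6 ROR and REV-ERB targets, 3 were called higher, beside 0.521% of all genes tested, and 0 lower, with a median of 0.62. Both lists share members with those above, so their counts are descriptions of the same genes.

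**Figure D2:**
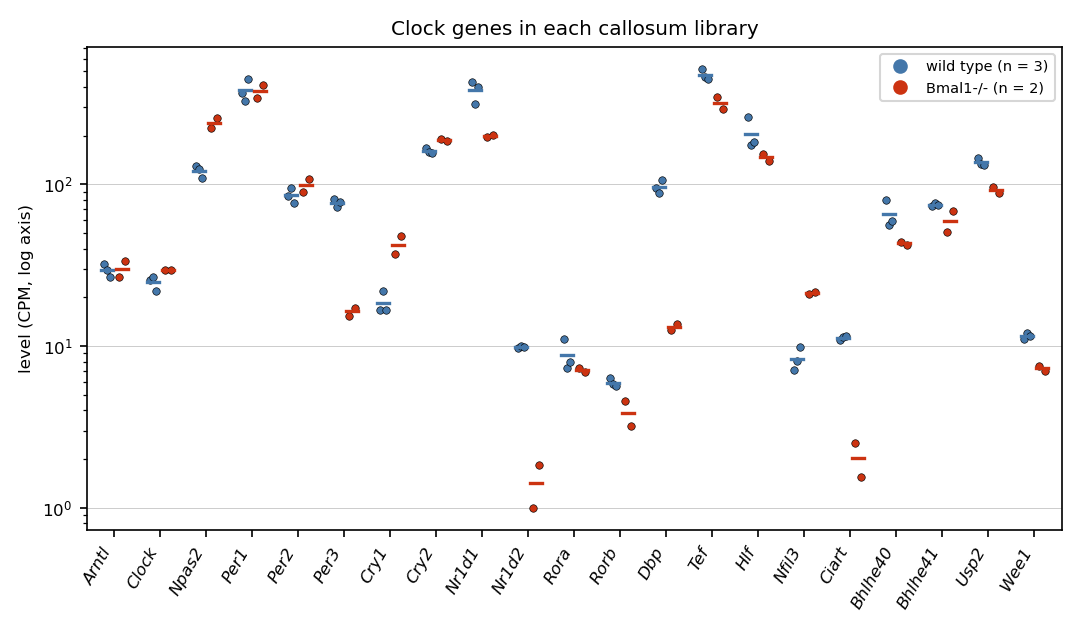
Level of 21 clock genes in each callosum library, in CPM on a log axis; blue points are the 3 wild-type libraries, red points the 2 libraries labelled Bmal1-/-, and bars the group means. Dbp, Per3, Nr1d2 and Ciart lie well below the wild type in both Bmal1-/- libraries, Npas2, Cry1 and Nfil3 above it, and Arntl, Per1 and Per2 overlap.

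Promoters of called genes were read for the letters that the clock's factors bind, since called genes lie on each loop. Those shown were chosen by hand among called genes that hold such letters. Of the called clock genes, Npas2, Nr1d2, Dbp and Usp2 held none of these letters in the 300 bases read. The sequences shown are the 250 bases before the first listed start in RefSeq's promoter table (GRCm38.p6), 5′ to 3′ on the gene's strand, with the matches on either strand in capitals. For Hsd11b1 and Nfil3 these bases lie inside the span given for the gene, so that start is not its outermost. The first pair shows E-boxes, CACGTG, and in Cry1 also the E-prime letters CACGTT read on the other strand. The next 3, of a period gene, a secreted protein and an enzyme that fell, show D-box letters TTATGNAA. The last shows the RORE core letters TAGGTCA, read on the other strand, in the promoter of Nfil3.
Ciart (chr3:95882229-95882478, minus strand): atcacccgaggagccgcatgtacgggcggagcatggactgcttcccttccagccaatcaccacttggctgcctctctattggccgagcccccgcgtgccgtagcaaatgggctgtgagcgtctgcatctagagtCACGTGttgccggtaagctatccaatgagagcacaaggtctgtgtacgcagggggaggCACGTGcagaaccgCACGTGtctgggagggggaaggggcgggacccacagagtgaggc
Cry1 (chr10:85185055-85185304, minus strand): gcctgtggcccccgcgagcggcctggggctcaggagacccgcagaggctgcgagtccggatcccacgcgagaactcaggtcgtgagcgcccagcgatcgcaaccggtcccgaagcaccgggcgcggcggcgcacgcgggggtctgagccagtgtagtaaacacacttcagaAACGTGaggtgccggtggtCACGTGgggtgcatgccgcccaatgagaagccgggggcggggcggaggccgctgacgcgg
Per3 (chr4:151044666-151044915, minus strand): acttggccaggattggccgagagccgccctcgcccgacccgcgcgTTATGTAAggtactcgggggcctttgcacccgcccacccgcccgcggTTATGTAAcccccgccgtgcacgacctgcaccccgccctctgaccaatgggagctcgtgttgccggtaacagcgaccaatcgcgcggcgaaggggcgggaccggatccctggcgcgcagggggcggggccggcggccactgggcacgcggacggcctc
Chil1 (chr1:134181906-134182155, plus strand): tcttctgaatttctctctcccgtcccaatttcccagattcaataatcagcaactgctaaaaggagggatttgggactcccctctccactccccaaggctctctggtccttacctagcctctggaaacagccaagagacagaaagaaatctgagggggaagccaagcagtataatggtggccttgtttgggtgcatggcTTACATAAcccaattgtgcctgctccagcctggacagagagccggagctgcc
Hsd11b1 (chr1:193242361-193242610, minus strand): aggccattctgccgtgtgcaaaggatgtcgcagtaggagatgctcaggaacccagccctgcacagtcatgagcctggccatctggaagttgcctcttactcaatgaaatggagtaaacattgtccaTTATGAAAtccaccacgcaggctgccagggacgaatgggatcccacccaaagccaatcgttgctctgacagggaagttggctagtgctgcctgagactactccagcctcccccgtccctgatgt
Nfil3 (chr13:52981040-52981289, minus strand): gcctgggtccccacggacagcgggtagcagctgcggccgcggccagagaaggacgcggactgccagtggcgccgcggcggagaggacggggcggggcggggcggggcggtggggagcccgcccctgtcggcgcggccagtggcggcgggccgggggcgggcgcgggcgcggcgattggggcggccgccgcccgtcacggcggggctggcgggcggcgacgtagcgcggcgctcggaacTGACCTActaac
Ciart holds 3 E-boxes, with first bases at -116, -58 and -44 from the start. It is the single one of the 6 E-box targets called lower (16.7%) to hold these letters in the window read. Among all E-box targets tested, 4 of 11 matched genes (36.4%) held them. Per1, Tef and Bhlhe41 hold E-box letters and were not called, and Per1 also holds a D-box. Per3 holds 2 D-boxes, at -205 and -158. In the 300 bases from 250 before to 50 after the start, D-box letters occurred in 5 of 49 matched genes called lower (10.2%), which were Per3, Chil1, Hsd11b1, Gkn3 and Gstt1. They occurred in 1 of 63 called higher (1.59%), Serpina3n, and in 2.45% of genes tested. RORE core letters, TAGGTCA or TGGGTCA, occurred in 9 of 63 called higher (14.3%), among them Nfil3, Gfap, Fabp7 and S100a4. They occurred in 2 of 49 called lower (4.08%) and in 6.09% of genes tested. E-box letters occurred in 4 of 63 called higher (6.35%), 7 of 49 called lower (14.3%) and 11.5% of genes tested. Matches in these windows are descriptions and were put to no test.

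Genes of reactive astrocytes were called higher and none lower: 5 of 28 tested, beside 0.521% of all genes. The median log2FC was 0.36 beside -0.01 over all genes. Gfap (chromosome 11, 102887336 to 102897200), the intermediate filament of astrocytes, read 292, 405 and 345 CPM in the wild type and 1551 and 1617 CPM in Bmal1-/-. C4b (chromosome 17, 34728139 to 34743902), complement component 4, read 28.3, 40.6 and 30.0 CPM against 322 and 420 CPM. The log2FC was 3.49 ± 0.18 (SE, edgeR adjusted p = 0.000104). Of its 50-base stretches, 35.2% also occur in another gene, C4a, which read 2.71, 2.96 and 1.63 CPM against 2.21 and 1.66 CPM. Serpina3n (chromosome 12, 104406646 to 104414334), a secreted inhibitor of serine proteases, read 12.5, 13.3 and 12.6 CPM against 41.9 and 36.0 CPM. For these 3 genes, every Bmal1-/- library exceeded the highest wild-type library by a wide margin, and the calls held. In the model of 11 libraries Gfap (edgeR adjusted p = 0.226) and Serpina3n (0.139) did not pass.

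The remaining calls of that list were smaller. Aspg, an asparaginase, read 2.88, 4.23 and 4.39 CPM against 14 and 9.28 CPM, and Stat3, the transcription factor downstream of gp130 cytokines, 63.5, 65.3 and 60.4 CPM against 95.3 and 97.3 CPM. Stat3 rose by 0.61 ± 0.09 on the log2 scale (SE, edgeR adjusted p = 0.0225), a call that ended whichever library was left out (0.0523 to 0.207), and it overlaps Stat5a on the opposite strand. The call of Aspg ended without wild-type replicate 2 or 3 or Bmal1-/- replicate 1 (0.0583 to 0.156). Other members did not pass, among them the filament gene Vim at 43.2, 60.7 and 54.8 CPM against 55.6 and 85.9 CPM. Cd44, a receptor for hyaluronan, read 0.169, 0.714 and 0.451 CPM against 1.57 and 1.83 CPM, and C3 read 0.846, 0.988 and 0.845 CPM against 1.69 and 1.78 CPM, also without passing. Of 18 complement genes tested, C4b alone was called. General astrocyte genes split: of 20, Gfap was called higher and Aldh1l1, a folate enzyme, lower, at 81.1, 75.2 and 73.7 CPM against 54.0 and 50.6 CPM (edgeR adjusted p = 0.0491, ended whichever library was left out, 0.0993 to 0.22). Summed over the 20, levels were 6334 to 6713 CPM in the wild type and 7609 and 8671 CPM in Bmal1-/-. These sums include Gfap, which alone read 292 to 405 CPM in the wild type and 1551 and 1617 CPM in Bmal1-/-. The median log2 fold change of the 20 was -0.01.

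Regulators of inflammatory signalling rose in few members. Bcl3 (chromosome 7, 19808462 to 19822824), an IkappaB family protein that works with NF-kappaB in the nucleus, read 1.64, 1.65 and 1.30 CPM in the wild type and 9.02 and 11.9 CPM in Bmal1-/- (log2FC 2.77 ± 0.22, SE; edgeR adjusted p = 0.000451). Its groups lay far apart, its call held, and Gm16175 overlaps it on the opposite strand. Tnfaip2 read 2.20, 2.09 and 2.20 CPM against 6.29 and 6.64 CPM, a call that ended without wild-type replicate 3 (0.0709) or Bmal1-/- replicate 1 (0.0537). Of 15 NF-kappaB factors and targets tested, these 2 were called. The chemokine Cxcl5, the single call among 13 chemokines and receptors, rested on 11, 2 and 12 counts in the wild type and 81 and 99 in Bmal1-/-. Summed, this is a ratio of 11.2, with an exact 95% interval of 7.32 to 17.7 for counting error only, and the call ended without wild-type replicate 3 (0.0622) or Bmal1-/- replicate 1 (0.0518). None of 17 interferon response genes, 15 antigen presentation genes, 18 microglia genes or 15 genes of disease-associated microglia was called. Over all genes tested 0.909% were called, so lists of this size would mostly hold no call. The last list had 13 of 15 genes fitted higher, with a median log2FC of 0.26. It summed to 3431 to 3455 CPM in the wild type and to 4372 and 4665 CPM in Bmal1-/-. The median level of its genes was only 8.4627, 10.432 and 9.6884 CPM in the wild type and 10.306 and 10.998 CPM in Bmal1-/-. The sums thus rested on its more abundant members, and cannot show whether the other members rose. The part of this list in the values of the reactive astrocyte and inflammatory genes was not tested.

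Of 21 metalloproteinases and Timp inhibitors, Mmp14 was called higher and Timp3 lower, with a median log2FC of 0.22 over the list. Mmp14 (chromosome 14, 54431598 to 54442456), a membrane-bound metalloproteinase, read 21.4, 22.0 and 20.4 CPM in the wild type and 70.9 and 92.0 CPM in Bmal1-/- (log2FC 1.94 ± 0.13, SE; edgeR adjusted p = 0.000246). Plat, tissue plasminogen activator, read 26.1, 27.8 and 25.9 CPM against 61.6 and 68.2 CPM. Of 16 plasminogen activators and protease inhibitors Plat, Serpina3n and A2m were called higher and 0 lower, with a median log2FC of 0.06. A2m, a broad protease inhibitor, rested on 15, 8 and 2 counts against 72 and 75 counts. The summed ratio was 9.12 (exact 95% interval 5.94 to 14.5), and the call ended in every leave-one-out setting but that without wild-type replicate 1 (0.0538 to 0.119). Timp3, an inhibitor of metalloproteinases that binds to the matrix, moved the other way, at 69.1, 77.3 and 61.3 CPM against 40.9 and 44.7 CPM (log2FC -0.69 ± 0.12, SE; edgeR adjusted p = 0.0431). It overlaps Syn3 on the opposite strand, and its call ended whichever library was left out (0.0638 to 0.247).

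Collagens were called in 1 direction: of 40 tested, Col5a3, Col18a1 and Col4a1 rose and 0 fell, beside a median log2FC of 0.17 over the 40. Col5a3 (chromosome 9, 20770050 to 20815117), a chain of fibril-forming type V collagen, read 6.04, 7.08 and 6.82 CPM against 19.4 and 26.0 CPM. P4ha3 (chromosome 7, 100285489 to 100319701), a prolyl hydroxylase that modifies collagen chains, read 5.25, 6.70 and 5.13 CPM against 24.5 and 22.7 CPM. Both calls held, with the lowest Bmal1-/- library well above the highest wild-type one. Col18a1 read 7.62, 7.63 and 7.83 CPM against 17.1 and 14.8 CPM, and Col4a1, of basement membranes, 66.6, 66.2 and 62.2 CPM against 92.9 and 108 CPM. The call of Col18a1 ended without wild-type replicate 3 (0.117) or Bmal1-/- replicate 1 (0.0963). That of Col4a1, which overlaps Col4a2 on the opposite strand, ended without any of 4 libraries and stayed only without Bmal1-/- replicate 1 (0.048 to 0.24).

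Of 39 secreted matrix glycoproteins and proteoglycans, Spon2, Egfl6 and Sparc were called higher and Fbln1 lower, with a median log2FC of 0.03. Egfl6 (chromosome X, 166523007 to 166585716), a secreted protein with EGF-like repeats, was near its detection limit in the wild type, at 0.621, 0.220 and 0.451 CPM from 11, 4 and 8 counts. In Bmal1-/- it read 4.66 and 5.10 CPM from 80 and 89 counts, and the call held. Spon2, an integrin ligand, had 6, 1 and 1 counts against 81 and 58 counts, a summed ratio of 26.9 (exact 95% interval 13.3 to 63.6). Its call ended without wild-type replicate 3 (edgeR adjusted p = 0.0525). Sparc, a collagen-binding protein of astrocytes and vessels, read 155, 159 and 153 CPM against 252 and 269 CPM, a small change with tight replicates (log2FC 0.74 ± 0.09, SE), whose call ended without wild-type replicate 3 (0.118). Fbln1, fibulin 1, fell from 16.8, 18.8 and 12.8 CPM to 7.34 and 7.68 CPM, a call that ended whichever library was left out (0.0634 to 0.215). Egfl8, another gene with EGF-like repeats, rose from 1.18, 1.15 and 1.24 CPM to 6.11 and 8.13 CPM. That call held, though 27.9% of its stretches also occur in other genes and Agpat1 overlaps it. Beside these, the 13 tested markers of mural cells and fibroblasts had a median log2FC of -0.33 and 0 calls. The 11 genes of meningeal and perivascular fibroblasts, all fitted lower with 0 calls, summed to 448 to 667 CPM in the wild type and 215 and 344 CPM in Bmal1-/-, and their part in these matrix values was not tested.

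Of 22 genes of neural stem and progenitor cells, Sox3 and Fabp7 were called higher, beside a median log2FC of 0.11. Sox3 (chromosome X, 60891366 to 60893430), a transcription factor of the SoxB1 family, had the lowest adjusted p of all rises. It read 4.74, 4.83 and 4.62 CPM in the wild type and 34.1 and 42.9 CPM in Bmal1-/- (log2FC 3.02 ± 0.15, SE; edgeR adjusted p = 4.91e-05), and the call held. The other SoxB1 genes did not pass: Sox2 read 53.1, 65.3 and 65.2 CPM against 61.5 and 79.3 CPM, and Sox1 36.3, 47.4 and 43.2 CPM against 31.6 and 38.9 CPM. Fabp7, a carrier of fatty acids in radial glia and astrocytes, read 0.451, 1.43 and 0.563 CPM against 8.68 and 7.28 CPM. Its call ended without wild-type replicate 3 (0.0626) or Bmal1-/- replicate 1 (0.0512). Nestin, encoded by Nes, read 13.1, 19.9 and 13.3 CPM against 16.2 and 22.2 CPM and did not pass. The list as a whole summed to 738 to 918 CPM in the wild type and 714 and 933 CPM in Bmal1-/-.

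Among 276 solute carriers, 3 were called higher and 3 lower, beside a median log2FC of -0.02. Slc20a2 (chromosome 8, 22476700 to 22569616), a sodium-phosphate cotransporter, rose from 70.0, 77.6 and 72.7 CPM to 182 and 212 CPM. Slc13a3 (chromosome 2, 165405295 to 165473197), a sodium-dependent carrier of dicarboxylates, rose from 27.6, 21.7 and 19.5 CPM to 68.5 and 63.7 CPM. Both calls held, and Slc20a2 overlaps Smim19 on the opposite strand. Slc38a3, a glutamine transporter, read 98.2, 116 and 106 CPM against 189 and 154 CPM, and its call ended in all leave-one-out settings except that without Bmal1-/- replicate 2 (0.0213 to 0.265). A citrate carrier related to Slc13a3 went down: Slc13a5 read 13.8, 10.9 and 12.7 CPM against 6.40 and 6.76 CPM. The zinc carrier Slc39a10 fell from 30.1, 26.7 and 25.9 CPM to 16 and 14.3 CPM, and the calls of both ended whichever library was left out (0.0538 to 0.251 and 0.0529 to 0.118). Kcne1l, a potassium channel subunit, was the single call among 79 potassium channel genes, at 7.84, 12.5 and 10.2 CPM against 27.4 and 39.1 CPM, and ended without wild-type replicate 3 (0.0933).

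Further rises fell outside these groups. S100a4 and S100a6, calcium-binding proteins, were the calls among 15 S100 and annexin genes, a list with a median log2FC of 0.45. S100a6 read 4.01, 7.91 and 5.46 CPM against 14.6 CPM in both Bmal1-/- libraries. S100a4 read 0.282, 0.714 and 0.676 CPM against 4.43 and 2.23 CPM, with 56.4% of its stretches shared with other genes, and each call ended without any of 4 libraries (largest edgeR adjusted p = 0.265 for S100a6 and 0.269 for S100a4). Cdkn1a, the cell cycle inhibitor p21 and a p53 target, read 22.9, 25 and 22.3 CPM against 39.1 and 59.1 CPM, and was the single call among 18 p53 targets. Its call ended without any wild-type replicate (0.0595, 0.0761 and 0.186). Bag3, a co-chaperone, read 38.5, 41.6 and 42.8 CPM against 71.4 and 88.2 CPM, the single call among 17 heat shock genes, and ended without wild-type replicate 3 (0.078). Adgrg1, an adhesion receptor of glial precursors, read 180, 204 and 163 CPM against 319 and 360 CPM and ended likewise (0.118). Entpd2, an enzyme that degrades extracellular ATP, and Vstm4, chosen after their values were seen, complete the rises whose calls held. Entpd2 read 23.4, 22.6 and 19.3 CPM against 49.3 and 51.0 CPM, with 29.9% of its stretches shared with other genes, and Vstm4 3.95, 4.06 and 3.32 CPM against 12.2 and 10.8 CPM. In the model of 11 libraries Egfl8 (edgeR adjusted p = 0.0697), Vstm4 (0.0564) and Entpd2 (0.179) did not pass.

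**Figure D3:**
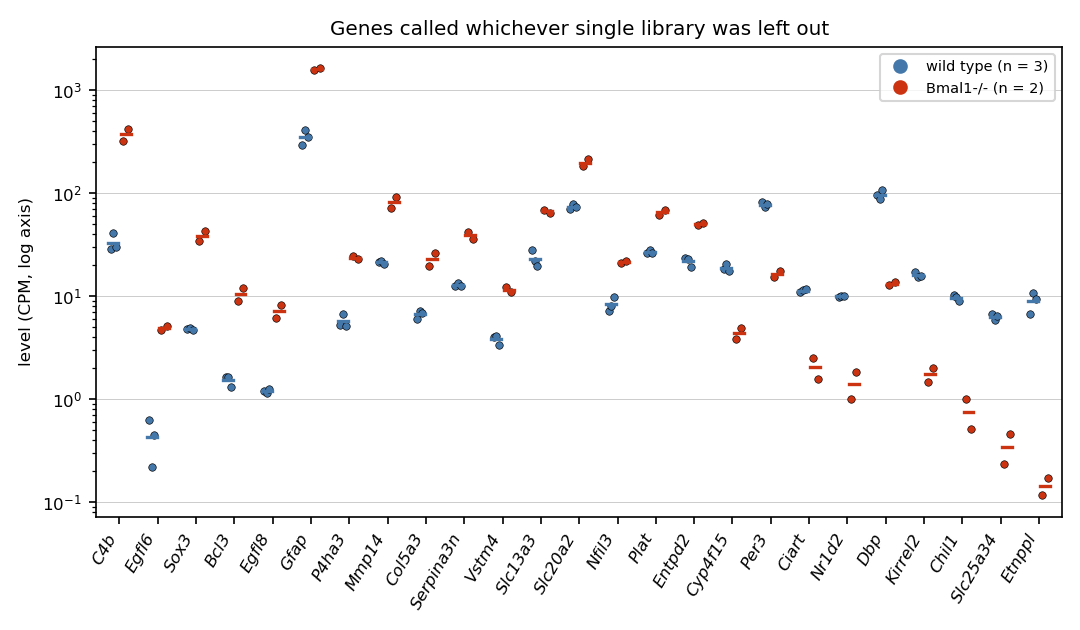
Level of the 25 genes whose calls held whichever single library was left out, in CPM on a log axis; blue points are the 3 wild-type libraries, red points the 2 libraries labelled Bmal1-/-, and bars the group means. The 16 genes from C4b to Entpd2 lie higher and the 9 from Cyp4f15 to Etnppl lower in Bmal1-/-, with no overlap.

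Etnppl and Slc25a34 had the lowest fitted log2FC of the called genes. Etnppl (chromosome 3, 130617448 to 130635750), the phospho-lyase that breaks down phosphoethanolamine, had 118, 196 and 165 counts in the wild type and 2 and 3 in Bmal1-/-. The wild-type level of 6.66 to 10.8 CPM thus stood against values at or under the 3-count limit, and the summed ratio was 61.8 (exact 95% interval 26.3 to 191). Slc25a34, a mitochondrial carrier, fell from 6.66, 5.82 and 6.37 CPM to 0.233 and 0.458 CPM. It was the single call among 20 mitochondrial carriers. Cyp4f15, a cytochrome P450 of fatty acid oxidation, read 18.1, 20.2 and 17.6 CPM against 3.84 and 4.87 CPM, the single call among 22 such genes. These 3 calls held (largest edgeR adjusted p = 0.00713, 0.01 and 0.0122).

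Other enzymes fell from lower levels or by less. Hsd11b1 (chromosome 1, 193221640 to 193264045), which regenerates active glucocorticoid from its inert form, read 2.93, 3.29 and 3.66 CPM against 0.582 and 0.458 CPM. Its call ended without wild-type replicate 3 (0.0634) or Bmal1-/- replicate 1 (0.0518). Acaa2, a thiolase of mitochondrial beta-oxidation, read 12.5, 9.22 and 12.2 CPM against 4.72 and 5.44 CPM, and Gstt1, a glutathione S-transferase, 7.22, 6.48 and 7.32 CPM against 3.09 CPM in both Bmal1-/- libraries. The call of Acaa2 ended in all leave-one-out settings except that without wild-type replicate 2 (0.0261 to 0.231), and that of Gstt1 in all 5 (0.0505 to 0.166). Inmt, a methyltransferase, had 25, 22 and 21 counts against 2 and 1. Nat8, an acetyltransferase, had 15, 15 and 16 counts against 1 and 1. Summed ratios were 14.6 (exact 95% interval 4.80 to 72.6) and 14.8 (3.88 to 126), and these calls ended without wild-type replicate 3 (0.098 and 0.154), without either Bmal1-/- replicate (0.0786 to 0.247) and, for Nat8, in every other leave-one-out setting too. None of 24 genes of cholesterol synthesis and uptake, 21 of fatty acid synthesis or 24 of the respiratory chain was called. That is close to the 0.909% called over all genes tested.

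Secreted and surface proteins also fell. Chil1 (chromosome 1, 134182156 to 134190031), a chitinase-like protein secreted by astrocytes whose promoter is shown above, read 10.2, 9.72 and 8.84 CPM against 0.990 and 0.516 CPM. It fell by 3.66 ± 0.27 on the log2 scale (SE, edgeR adjusted p = 0.000402), and the call held. Kirrel2 (chromosome 7, 30447766 to 30457515), a cell adhesion protein of the nephrin family, read 17.2, 15.2 and 15.8 CPM against 1.46 and 2.00 CPM, and its call held. Nphs1, nephrin, its neighbour on the chromosome, read 3.05, 2.69 and 2.20 CPM against 0.349 and 0.401 CPM, from 6 and 7 counts in Bmal1-/-. The call of Nphs1 ended without wild-type replicate 3 (0.0525) or Bmal1-/- replicate 1 (0.094), and Nphs1os overlaps it on the opposite strand. Sfrp5, a secreted Wnt antagonist, read 2.37, 3.90 and 3.15 CPM against 0.582 and 0.859 CPM, the single call among 27 Wnt genes. Gkn3 read 3.67, 3.95 and 2.25 CPM against 0.408 and 0.229 CPM. Mfge8, a bridging protein for phagocytosis, read 336, 304 and 281 CPM against 196 and 198 CPM. The call of Gkn3 ended without Bmal1-/- replicate 1. That of Sfrp5 ended in all leave-one-out settings except that without wild-type replicate 1 (0.0248 to 0.166 over the fits without a wild-type library). That of Mfge8 ended whichever library was left out (0.0665 to 0.148 over the fits without a wild-type library). Hif3a, an oxygen-regulated factor on the glucocorticoid response list, read 17.2, 9.94 and 10.8 CPM against 3.78 and 4.41 CPM. Cdkn1a is on that list too and was called higher, and the call of Hif3a ended without wild-type replicate 3 or either Bmal1-/- replicate (0.0848 to 0.253).

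Several genes of neuronal signalling were called lower, beside the lower striatal values given above. Camkv, a kinase-like calmodulin-binding protein, read 647, 616 and 628 CPM in the wild type and 323 and 353 CPM in Bmal1-/-. Hpca, the calcium sensor hippocalcin, read 536, 708 and 534 CPM against 300 and 344 CPM, and Camk1g 48.7, 34.4 and 36.5 CPM against 17.8 and 18 CPM. Hpca and Camk1g were each highest in 1 wild-type library, Hpca in the one with the highest striatal sum and Camk1g in replicate 1, which had the lowest striatal sum of the wild type. Hrh3, a histamine receptor, read 265, 228 and 222 CPM against 157 and 121 CPM, and Cacng3, an auxiliary subunit of AMPA receptors, 127, 117 and 110 CPM against 75.4 and 71.3 CPM. With the striatal level of each library as a covariate, Camk1g (edgeR adjusted p = 0.00514), Camkv (0.00747), Hrh3 (0.015) and Cacng3 (0.0268) stayed called and Hpca (0.0671) did not. That covariate was -0.472, 1.42 and 0.481 in the wild type and -1.155 and -0.277 in Bmal1-/-. It thus partly follows genotype, and a fit of 5 libraries cannot separate the striatal level from genotype. Without wild-type replicate 3 none of these 5 was called (0.0717 to 0.176), nor without Bmal1-/- replicate 1 (0.055 to 0.247). The calls of Hpca and Camk1g also ended without Bmal1-/- replicate 2, and those of Hrh3 and Cacng3 in all 5 leave-one-out settings. Hpca overlaps Tmem54 on the opposite strand. None of 39 glutamate and GABA receptor genes, 21 neuropeptide genes or 19 genes of mature neurons was called, beside 0.909% of all genes tested. Over the receptor genes the median log2FC was -0.18.

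Lists of the other cell types held no called gene, beside 0.909% of all genes tested. The median was 0.07 over 25 myelin genes and 0.06 over 20 genes of oligodendrocyte precursors. Mbp, the main basic protein of myelin, read 13623, 20813 and 18790 CPM against 15722 and 21624 CPM. The spread within a genotype was thus larger than the difference between genotypes. Endothelial genes had a median of 0.00 over 15 and microglia genes of 0.16 over 18. The lists with the lowest medians were striatal neurons (-1.28 over 12) and choroid plexus (-1.20 over 7). Ttr, the leading gene of choroid plexus, read 15.2, 32.6 and 141 CPM against 9.84 and 6.30 CPM and did not pass. Ependymal genes had a median of -0.56 over 12, with 0 called.

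**Figure D4:**
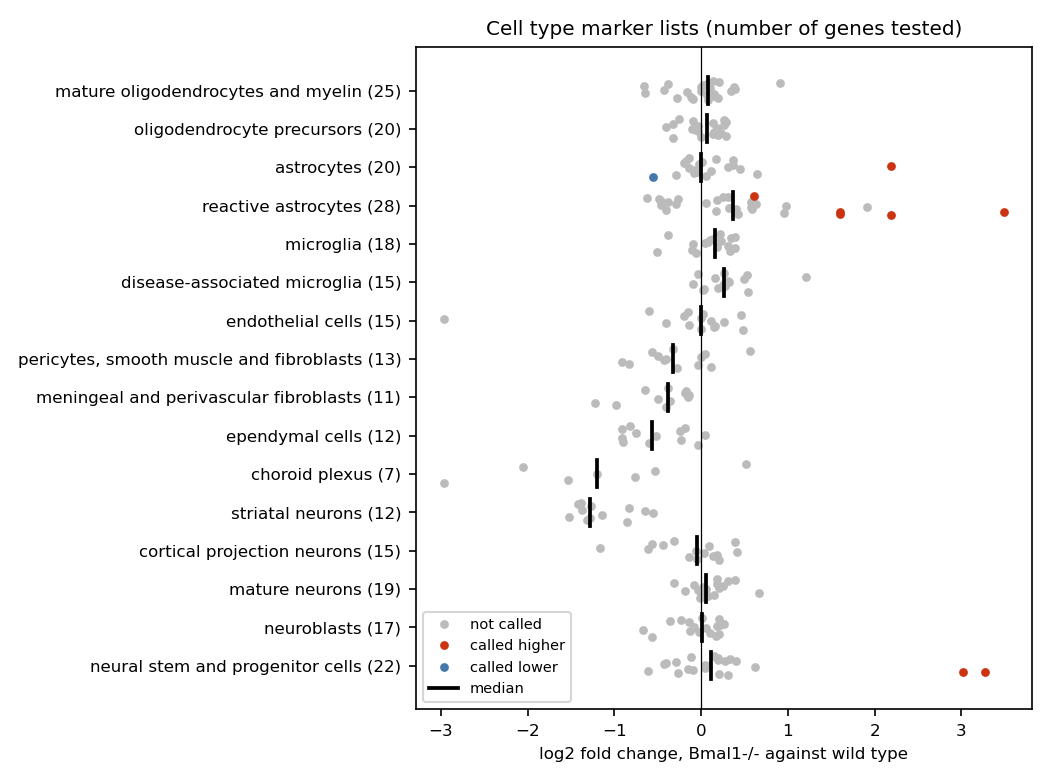
Log2 fold change, Bmal1-/- against wild type, on the x axis for each tested gene of 16 cell type marker lists on the y axis, with the number tested in brackets and the median as a black bar. Red and blue points are called genes; calls lie in the lists of astrocytes, reactive astrocytes and neural stem and progenitor cells, and the striatal and choroid plexus lists have medians of -1.28 and -1.20 with 0 calls.

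Calls were also placed by position. Chromosome 7, which carries Arntl, held 1103 tested genes, of which 4 were called higher and 7 lower (0.997%, beside 0.909% of all genes tested). Within 5 Mb of Arntl 0 of 53 genes were called, within 10 Mb 1 of 112, Cacng3, and within 20 Mb 4 of 320 (1.25%), P4ha3, Bag3, Chst15 and Cacng3. Trim12a, at -8.94 Mb from Arntl, was not called, although its fitted log2FC of -6.41 lay below that of Etnppl (-5.88). Called genes lay within 100 kb of each other in 7 pairs, 14 genes in all, and the members of each pair shared their direction. No tested gene lay between the members except in the pair of Hsd11b1 and Camk1g, which has 2. The closest were Kirrel2 and Nphs1, 692 bases apart, then Nhsl1 and Hebp2, at 6231 bases, and S100a4 and S100a6, at 6849 bases. Hebp2 rose from 1.24, 0.604 and 0.563 CPM to 5.71 and 5.56 CPM, whereas Nhsl1, chosen after its value was seen, rose from 32.6, 31.0 and 27.4 CPM to 52.3 and 60.6 CPM. Both calls ended without wild-type replicate 3 (edgeR adjusted p = 0.0585 and 0.118). The remaining pairs were Tnfaip2 with Gm266, Sctr with Dbi, Nat8 with 1700019G17Rik, and Hsd11b1 with Camk1g.

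**Figure D5:**
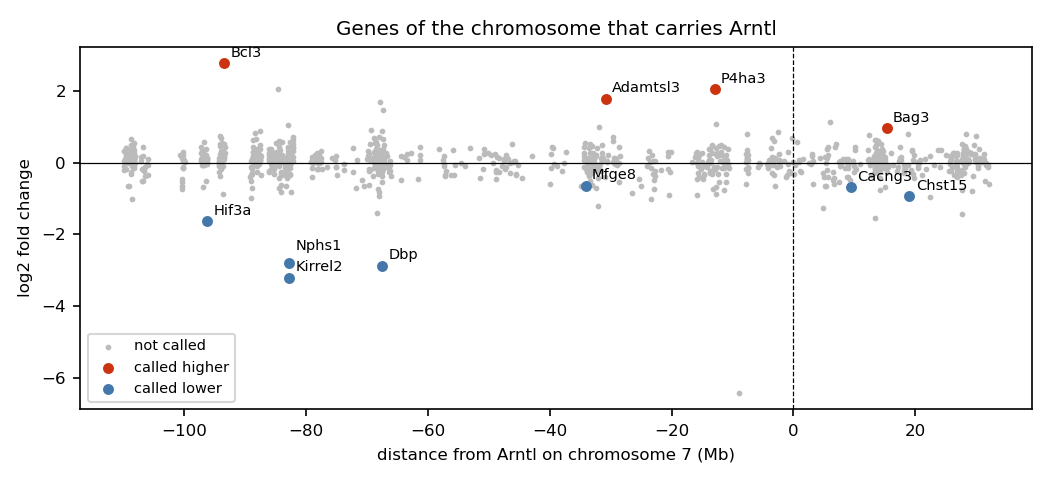
Log2 fold change, Bmal1-/- against wild type, on the y axis for each tested gene of chromosome 7, against its distance from Arntl in Mb on the x axis, where the dashed line marks Arntl. Of the 4 genes called higher (red) and 7 called lower (blue), none lies within 5 Mb of Arntl, and Kirrel2 and Nphs1 lie side by side. Trim12a, at -8.94 Mb, was fitted at -6.41 and not called.

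Set beside the neurospheres, 110 of the 129 genes were also tested there, and 92 of them (83.6%) had the same sign, against 61.7% of the 12953 genes tested in both sources. One of the 129, Nr1d2, was also called in neurospheres, where its log2 fold change was -4.11 ± 0.20 (SE, edgeR adjusted p = 0.000403) beside -2.80 ± 0.25 in the callosum. Per3 had neighbouring values in both, -2.23 ± 0.12 in the callosum and -2.43 ± 0.31 in neurospheres, although it did not pass there (edgeR adjusted p = 0.11). In a test of the difference between sources, 2 genes of all those tested passed, C4b and Mmp14. C4b stood at -0.20 ± 0.23 on the log2 scale in neurospheres, 3.67 below the callosum (SE 0.33, edgeR adjusted p = 0.00165). Mmp14 stood at 0.03 ± 0.17 there, 1.89 below the callosum (SE 0.22, edgeR adjusted p = 0.0115). For the other 127 called genes a difference between the sources was not shown.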

How the data were processed

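RNA from dissected corpus callosum was sequenced on the BGISEQ-500 platform after mRNA enrichment or rRNA depletion (which one is not stated per library). Reads were aligned with STAR 2.7.1a to mm10, per the submitters' processing notes; which annotation was counted is not given in these sources. The deposited files hold raw read counts per gene symbol for 24411 symbols. Counts that ignored strand were used (49.6% to 49.9% of counts lay on the first strand), so a gene and its partner on the opposite strand could not be separated. Reads not assigned to a gene, 18.2% to 19.1% of each callosum library, were left out, and multimapping reads are listed at 0, so near-identical genes are undercounted.

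Callosum libraries were fitted alone with edgeR 4.0.16 in R 4.3.3 (TMM, filterByExpr, robust quasi-likelihood F test, two-sided, Benjamini-Hochberg over 14198 genes). Genes were called at an adjusted p under 0.05, and SE is the log2 fold change over the square root of F. Library pairs within a group differed by a chi-square of 11.4 to 26.1 per degree of freedom, above sampling noise. Pairs across genotypes differed by 15.1 to 38.6, a range that overlaps the former. Each library was counted as 1 replicate, although the spread may be technical. Alternatives were RLE and upper-quartile scaling, 2 other filters, DESeq2 1.42.0, limma-voom 3.58.1, a replicate block, 1 model of 11 libraries, a striatal covariate and leaving out each library. Gene lists and the members described were chosen with earlier results of these data known. Named genes were the clock lists, called members of any list, the 25 largest rises and falls, the 15 called genes of highest level, called genes within 20 Mb of Arntl and those called in every setting. Positions and promoters came from RefSeq (GRCm38.p6, the assembly of mm10; 99.7% of genes tested had a position), and opposite-strand and shared 50-base stretches from GENCODE M21, where 30 called genes have an opposite-strand exon overlap and 7 share over 10% of stretches. The statistics were tested on simulated data.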

Additional observations from a re-analysis of the deposited data

Results flagged for a closer look

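For 2 genes the effect of genotype differed between the callosum and the neurospheres by a test of the difference itself. C4b, complement component 4, had a log2 fold change of 3.49 ± 0.18 (SE) in the callosum and -0.20 ± 0.23 in neurospheres, a difference of 3.67 ± 0.33 (edgeR adjusted p = 0.00165). Mmp14, the membrane-bound metalloproteinase, had 1.94 ± 0.13 in the callosum and 0.03 ± 0.17 in neurospheres, a difference of 1.89 ± 0.22 (edgeR adjusted p = 0.0115). Cell makeup, culture and the share of reads assigned to genes also differ between the sources, and cannot be told apart from the source.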

How the results depend on the processing

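No called gene changed sign in any alternative, and scaling moved the median of all genes by less than 0.1 on the log2 scale. Against 129 calls (74 higher, 55 lower), 224 were made with no filter (124 and 100), 330 by DESeq2 (192 and 138) and 33 when all 11 libraries shared 1 model (22 and 11). Leaving out 1 library gave 27 to 192 calls, 16 to 159 higher and 11 to 45 lower: 107 without wild-type replicate 1, 73 without replicate 2, 27 without replicate 3, 49 without Bmal1-/- replicate 1 and 192 without its replicate 2. Of the 129, DESeq2 kept 128, limma-voom 107, the striatal covariate 74 and the fit without wild-type replicate 3 26. A replicate block gave 131 calls and kept 94 of the 129, 69 higher and 62 lower being called. Wild-type replicate 3 has no same-numbered Bmal1-/- library, so its block takes it up whole and it adds nothing to that genotype difference. That fit thus leaves little from which to measure spread. Deviations of same-numbered libraries correlated at 0.05 and 0.01. With 2 Bmal1-/- libraries, their deviations from the group mean mirror each other, so these values cannot show whether the numbers pair the samples. With 2 Bmal1-/- libraries of 17662945 and 17789279 gene counts, genes under about 1 CPM rest on few counts, and their fitted fold changes are imprecise.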

Other observations

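Further genes rose in the Bmal1-/- callosum that belong to none of the groups described. Lrig1, which restrains EGF receptors, read 31.8, 31.5 and 30.5 CPM in the wild type and 69.8 and 49.7 CPM in Bmal1-/-, and was the single call among 13 EGF receptor and ligand genes. Igfbp2, a binding protein for insulin-like growth factors, read 22.7, 16.7 and 20.2 CPM against 36.7 and 33.7 CPM, the single call among 13 genes of that pathway. Ddah1, which breaks down an inhibitor of nitric oxide synthesis, read 92.9, 114 and 103 CPM against 182 and 171 CPM. Prrx2, a homeobox factor, read 1.24, 2.36 and 1.75 CPM against 6.81 and 7.91 CPM, and Plekhd1 3.95, 2.91 and 3.04 CPM against 17.9 and 10.9 CPM. Igsf1, a membrane protein of the immunoglobulin superfamily, read 0.564, 0.384 and 0.563 CPM against 3.03 and 2.69 CPM. Sctr, the secretin receptor, read 0.790, 0.714 and 1.24 CPM against 3.32 and 3.04 CPM. Its neighbour Dbi, an acyl-CoA binding protein chosen after its values were seen, read 41.3, 53.4 and 49.0 CPM against 94.7 and 90.7 CPM. Without wild-type replicate 3 none of these 8 calls stood (edgeR adjusted p = 0.0709 to 0.22), and that of Sctr ended whichever library was left out (0.0693 to 0.229). Without Bmal1-/- replicate 1 only Plekhd1 and Prrx2 of the 8 stayed called. Lrig1 also ended without wild-type replicate 1 (0.0523) or 2 (0.0761), and Igfbp2 without wild-type replicate 2 (0.0788) or Bmal1-/- replicate 2 (0.0565).

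Other genes fell as well. Steap3, an iron reductase, read 16.7, 15.8 and 14.6 CPM in the wild type and 5.53 and 7.22 CPM in Bmal1-/- (log2FC -1.30 ± 0.17, SE; edgeR adjusted p = 0.00933). Epha8, an ephrin receptor, read 17.7, 22.5 and 17.5 CPM against 6.52 and 10.3 CPM, and Prex2, an exchange factor for Rac, 8.52, 10.9 and 8.67 CPM against 3.2 and 4.24 CPM. Chst15, a sulfotransferase of chondroitin sulfate, read 23.2, 27.5 and 22.0 CPM against 12.8 and 12.7 CPM. Fam107a, which binds actin and is known from astrocytes, read 506, 491 and 453 CPM against 288 and 333 CPM. Jsrp1 read 4.63, 4.23 and 4.22 CPM against 1.75 and 1.78 CPM. In each of these 6 genes the lowest wild-type library exceeded the highest Bmal1-/- library, but groups did not overlap in any called gene. The same was so for 32.5% of all genes tested. None of the 6 was called without wild-type replicate 3 (edgeR adjusted p = 0.0717 to 0.189) or without Bmal1-/- replicate 1. Fam107a and Jsrp1 ended whichever library was left out. Epha8 also ended without wild-type replicate 1 (0.0608) or 2 (0.119), Prex2 without wild-type replicate 2 (0.071), and Chst15 without wild-type replicate 2 (0.054) or Bmal1-/- replicate 2 (0.0562). Of the 129 called genes, 70 belong to none of the lists fixed.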
